A study of Ovis aries with 23 samples.

Results

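Lung tissue of sheep injured with oleic acid alone, the phenotype 1 (Ph1) model, was compared between observation times of 6, 12 and 24 h. Every animal labelled OA (oleic acid), which marks the Ph1 model, was taken, 14 of the 23 sheep of the series. All 20 measured tags were read in each. The animals were female, non-pregnant Merino-Dorset ewes aged between 1 and 3 years, under general anesthesia and mechanical ventilation. Each received oleic acid into a vein in repeated doses until oxygenation had fallen to a set limit, and none received the lipopolysaccharide that defines the other model. At 6 h there were 5 animals, C1, C2, C3 and C11 from the CELTIC trial and SD6 from the STARDUST trial. At 12 h there were 4 animals, C17, C18, C19 and C21, all from CELTIC. At 24 h there were 5 animals, SD1, SD2, SD7, SD10 and SD14, all from STARDUST. The CELTIC animals were controls without extracorporeal support or cell therapy, and the STARDUST animals belonged to the pilot stage of that trial. Each animal gave tissue once, at its end of observation, as RNA of 3 lobes of the right lung pooled. RNA integrity as listed by the study was mostly lower in the CELTIC than in the STARDUST animals, with overlap. In C19 the upper lobe lay under the study's own limit, and whether it entered the pool is not stated. Whether RNA integrity bears on the differences was not tested. No lung without injury was analysed here, so every difference is between injured animals.

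Oleic acid given into a vein damages the endothelium of the lung capillaries, and fluid and neutrophils then enter the air spaces. Neutrophils carry their granule proteins ready made: the messenger RNAs for the proteins of the specific granules are made mainly while the cells mature in the bone marrow, and membrane metalloendopeptidase (MME, also called CD10 or neprilysin) appears on the surface of the neutrophil late in that maturation. MME is also found on cells of the lung itself, where it cleaves small peptides. In whole lung tissue, fewer cells of a type and less RNA per cell cannot be told apart, and the assay holds no marker that defines lung epithelium, endothelium or macrophages alone, so the labelled tissue could not be checked.

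The nCounter assay counts pairs of probes that bind side by side to a messenger RNA, without amplification, and values are given as log2 normalized counts, on which a difference of 1 is a doubling. Each target is bound by a reporter (probe A) and by a capture probe (probe B). The table of values lists tags and no gene names. The first 16 tags were named by their place in the study's probe table, and T036 to T039 keep their tag numbers because 4 tags stand against the 6 remaining genes of that table. The probes of TCN1 and MME are shown because the results turn on these genes. The TCN1 pair targets bases 866 to 965 of its transcript and the MME pair bases 2087 to 2186. In the capture probes below, written 5′ to 3′, capitals mark the 50 bases that belong to the gene, and lower case marks the 25 bases that all 22 capture probes of the table share.
TCN1: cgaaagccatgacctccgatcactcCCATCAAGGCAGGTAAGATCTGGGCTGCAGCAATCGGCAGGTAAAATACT
MME: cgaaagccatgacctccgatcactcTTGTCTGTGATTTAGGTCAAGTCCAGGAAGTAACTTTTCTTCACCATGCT
The part that belongs to the gene had a GC content of 50.0% for TCN1 and 40.0% for MME.

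TCN1 and MME were the named markers that differed between 6, 12 and 24 h. Relative to 6 h their means lay in opposite directions, while both were higher at 24 than at 12 h. TCN1 was highest at 6 h and lowest at 12 h, whereas the mean of MME was higher at each time point than at the one before. An exact permutation Kruskal-Wallis test on each tag, with Benjamini-Hochberg adjustment over the 20 tags, called 3 of them, which is 15% of those tested. These were TCN1 (exact permutation p = 0.00249), MME (p = 0.00293) and the unnamed tag T037 (p = 0.00284), each with an adjusted p of 0.0196. Calls were lost with 1 animal fewer at 24 h: without SD2 or without SD7 the same test called 0 tags, with an adjusted p of 0.0716 for each of these 3, without SD10 or SD14 it called TCN1, and without SD1 it called MME. The differences between 24 and 6 h stayed near their values: without SD2 they were -1.27 for TCN1, 0.99 for MME and -1.05 for T037, and without SD7 they were -1.17, 1.02 and -1.08. Without SD6 the same 3 tags were called. The exact permutation test of means called 0 tags after adjustment and 5 before it, the lowest adjusted p being 0.0645, and limma with the time point called 5 (TCN1, MME, OLFM4, T036 and T037). When the median of the 14 markers was first subtracted in every animal, the exact permutation Kruskal-Wallis test called MME and T036.

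TCN1 encodes transcobalamin 1 (haptocorrin), a vitamin B12-binding protein of the specific granules of neutrophils. At 6 h its log2 normalized count was 12.14 in C1, 11.16 in C2, 12.31 in C3, 12.11 in C11 and 11.87 in SD6. At 12 h it was 9.95 in C17, 10.15 in C18, 10.10 in C19 and 10.11 in C21. At 24 h it was 10.34 in SD1, 10.66 in SD2, 10.25 in SD7, 9.95 in SD10 and 12.05 in SD14. All animals at 12 h lay below all animals at 6 h and within a narrow band, while at 24 h SD14 lay among the 6 h values and the other animals did not.

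The mean of TCN1 was 11.92 ± 0.45 at 6 h (SD, n = 5), 10.08 ± 0.089 at 12 h (SD, n = 4) and 10.65 ± 0.82 at 24 h (SD, n = 5). Between 6 and 12 h it differed by -1.84 (SE 0.21), which is 3.58-fold lower (exact Mann-Whitney p = 0.0159, adjusted p = 0.317). This p is the smallest that 5 against 4 animals allow, and 7 tags would have had to reach it for a call after adjustment. limma, which pools the spread over the tags, gave an adjusted p of 0.000472 for the same difference. Within CELTIC alone, where trial does not vary, TCN1 differed by -1.85 (SE 0.26), 3.60-fold lower at 12 h, with no overlap (exact Mann-Whitney p = 0.0286, the smallest that 4 against 4 allow, adjusted p = 0.286), and limma gave an adjusted p of 0.00102.

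At 24 h TCN1 was lower than at 6 h by a difference of -1.27 (SE 0.42), 2.41-fold, with overlap through SD14 (exact Mann-Whitney p = 0.0317, adjusted p = 0.212). Without SD14 the difference was -1.62. The STARDUST animal at 6 h, SD6, had 11.87, within the CELTIC range at 6 h and, through SD14, also within the 24 h range. The mean of the 24 h animals lay 1.22 below SD6. From 12 to 24 h TCN1 differed by 0.57 (SE 0.37), with overlap (exact Mann-Whitney p = 0.111), and between these time points time and trial cannot be told apart. The difference was 0.22 without SD14 and 0.75 without SD10 (exact Mann-Whitney p = 0.0286, adjusted p = 0.143).

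MME encodes a cell-surface peptidase. At 6 h its log2 normalized count was 11.73 in C1, 12.17 in C2, 11.98 in C3, 11.30 in C11 and 12.97 in SD6. At 12 h it was 12.73 in C17, 12.68 in C18, 12.42 in C19 and 12.61 in C21. At 24 h it was 12.74 in SD1, 13.12 in SD2, 13.02 in SD7, 13.03 in SD10 and 13.29 in SD14. The CELTIC animals at 6 h lay below all animals at 12 h, and these lay below all animals at 24 h, but SD6 stood above every CELTIC animal, at 6 as at 12 h, and inside the 24 h range.

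The mean of MME was 12.03 ± 0.62 at 6 h (SD, n = 5), 12.61 ± 0.14 at 12 h (SD, n = 4) and 13.04 ± 0.20 at 24 h (SD, n = 5). Within CELTIC it was 11.79 at 6 h and differed by 0.82 (SE 0.20) at 12 h, 1.76-fold higher, with no overlap (exact Mann-Whitney p = 0.0286, adjusted p = 0.286), and limma gave an adjusted p of 0.0574. With SD6 included, the difference between 6 and 12 h was 0.58 (SE 0.28, exact Mann-Whitney p = 0.190). Between 6 and 24 h MME differed by 1.01 (SE 0.29), 2.02-fold higher (exact Mann-Whitney p = 0.0159, adjusted p = 0.159). Between 12 and 24 h it differed by 0.43 (SE 0.11), with no overlap (exact Mann-Whitney p = 0.0159, adjusted p = 0.106), but there the time points hold different trials and the 2 cannot be told apart.

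For MME, trial and time could be set against each other at 24 h only through SD6. The mean of the 24 h animals lay 1.25 above the CELTIC mean at 6 h and 0.075 above SD6. In a limma fit of the 6 and 24 h animals with time point and trial together, the difference between 24 and 6 h was 0.075, against -1.22 for TCN1. In that fit the 24 h estimate rests on SD6 alone, and over the 3 time points it called TCN1 only (adjusted p = 0.0153), with MME at an adjusted p of 0.0734.

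**Figure D1:**
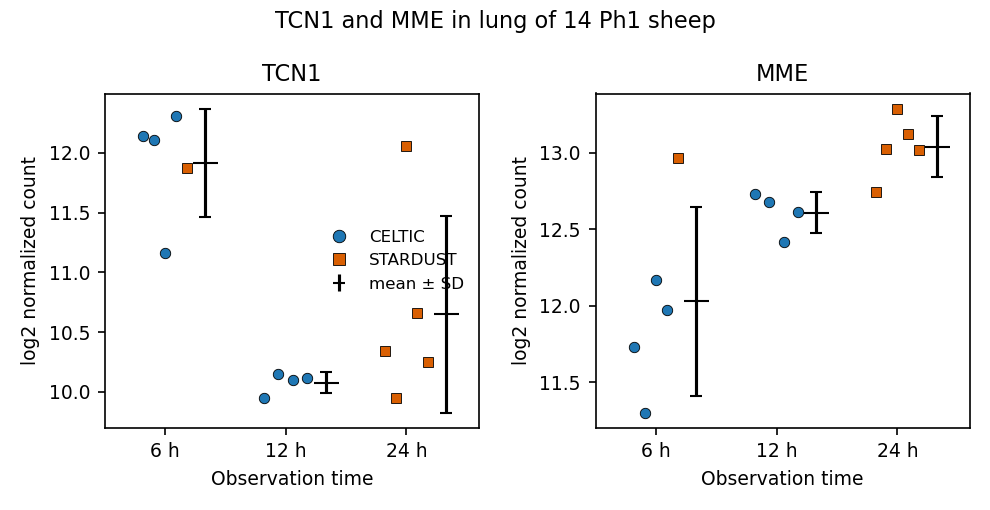
Log2 normalized counts (y axis) of TCN1 and MME in each Ph1 animal by observation time (x axis), with circles for CELTIC, squares for STARDUST, and the mean ± SD of each time point beside them. TCN1 was between 9.95 and 10.15 in all 4 animals at 12 h and at 12.05 in 1 square at 24 h (SD14), and the single STARDUST square at 6 h lies at 12.97 for MME, within the 24 h squares.

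The other neutrophil granule and surface markers on the panel, MMP8, OLFM4, LCN2 and CD177, did not pass the exact permutation Kruskal-Wallis test (adjusted p between 0.204 and 0.672). With TCN1 they form a list of 5, of which 4 had a lower mean at 24 h than at 6 h and LCN2 a higher one. The median difference of the list was -0.90, beside -0.32 over all 20 tags. The list was thus not uniform, and TCN1 was its only member with a p below 0.05 in any comparison of time points by these rank tests.

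OLFM4 encodes olfactomedin 4, a granule protein present in a subset of neutrophils. It had the widest range of all tags, from 2.11 to 7.95, and 4 to 223 counts per animal. At 6 h it was 7.42 in C1, 5.55 in C2, 4.33 in C3, 7.95 in C11 and 6.95 in SD6. At 12 h it was 4.40 in C17, 2.11 in C18, 4.33 in C19 and 4.07 in C21. At 24 h it was 6.29 in SD1, 5.52 in SD2, 4.88 in SD7, 2.96 in SD10 and 3.65 in SD14. Only C3 at 6 h lay within the 12 h range, and at 24 h the animals spread over both.

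The difference of OLFM4 between 6 and 12 h was -2.71 (SE 0.86, exact Mann-Whitney p = 0.0635, adjusted p = 0.635), the largest in size of any tag. limma gave it an adjusted p of 0.0438, and within CELTIC the difference was -2.59 (SE 1.00, exact Mann-Whitney p = 0.114). These values are given in full because of the limma result, a choice made after they were seen.

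MMP8 encodes neutrophil collagenase. Its mean was 4.88 ± 0.84 at 6 h (SD, n = 5), 4.47 ± 0.32 at 12 h (SD, n = 4) and 3.98 ± 0.40 at 24 h (SD, n = 5), and its range over the animals was 3.38 to 5.99. The difference of -0.90 (SE 0.41) between 24 and 6 h had an exact Mann-Whitney p of 0.0952 (adjusted p = 0.238). The SD6 animal, at 4.04, lay just below the CELTIC range at 6 h and 0.063 above the 24 h mean.

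LCN2 encodes lipocalin 2, which binds bacterial iron carriers and is made by neutrophil precursors and by injured epithelium. Its mean was 11.34 ± 0.91 at 6 h (SD, n = 5), 11.37 ± 0.21 at 12 h (SD, n = 4) and 11.93 ± 0.50 at 24 h (SD, n = 5). The CELTIC animals at 6 h lay between 10.64 and 11.37, the STARDUST animals at 24 h between 11.06 and 12.30, and SD6 at 12.88, above both. The difference between 24 and 6 h was thus 0.98 against the CELTIC animals and -0.95 against SD6, opposite in sign. CD177, a neutrophil surface protein, had 10 to 41 counts per animal and means of 4.30 ± 0.61, 4.28 ± 0.56 and 3.95 ± 0.62 at 6, 12 and 24 h (SD, n = 5, 4 and 5), which differed by less than their spread.

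**Figure D2:**
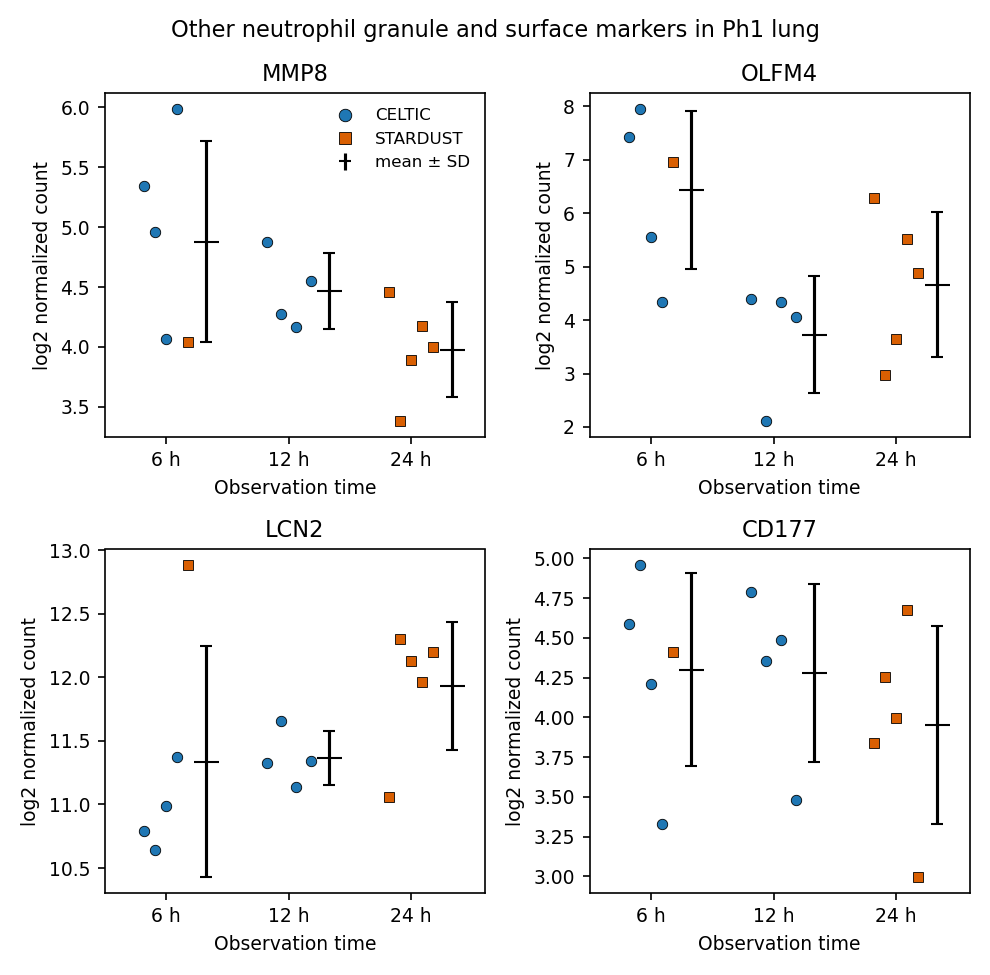
Log2 normalized counts (y axis) of MMP8, OLFM4, LCN2 and CD177 in each Ph1 animal by observation time (x axis), with circles for CELTIC, squares for STARDUST, and mean ± SD. The groups overlap in every panel, OLFM4 reaches down to 2.11 in C18 at 12 h, and SD6 is the highest animal for LCN2 at 12.88.

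Between the animals of a time point, the 5 granule and surface markers were compared in pairs. For the 10 pairs, deviations from the time-point mean were correlated over the 14 animals. Permutations moved the deviations across all animals and not within time points, so the permutation p values do not allow for the grouping. Pearson's r lay between -0.47 and 0.36 and was positive in 5 pairs, and 0 pairs had an unadjusted permutation p of r below 0.05. The lowest was for MMP8 and LCN2 (r = -0.47, permutation p = 0.0871, adjusted p = 0.553; rho = -0.48, permutation p = 0.0833, adjusted p = 0.361), with r = -0.39 without SD6 and C3, the animals farthest from the median of MMP8. OLFM4 and LCN2 had r = -0.36 (permutation p = 0.210, adjusted p = 0.553) and rho = -0.71 (permutation p = 0.00675, adjusted p = 0.0675), with r = -0.37 without C3 and SD10. Without SD6 this pair had r = -0.82 (adjusted permutation p = 0.0011), so that the call rests on whether SD6 is included. MMP8 and OLFM4 had r = 0.12 (permutation p = 0.687, adjusted p = 0.947) and rho = 0.35 (permutation p = 0.215, adjusted p = 0.430), but r = 0.74 without SD6 and C3.

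Of the receptors and adhesion molecules, GPR84, CEACAM1 and ADGRE3, 0 of 3 passed the exact permutation Kruskal-Wallis test (adjusted p between 0.515 and 0.672), beside 3 of 20 tags in all. The means of all 3 were lower at 24 h than at 6 h, as were those of 14 of the 20 tags, with differences between -0.94 and -0.24, and that of CEACAM1 turned to 0.041 when the marker median of every animal was subtracted. GPR84, a receptor for medium-chain fatty acids on myeloid cells, was 8.03 ± 1.37 at 6 h (SD, n = 5), 7.47 ± 0.82 at 12 h (SD, n = 4) and 7.09 ± 1.13 at 24 h (SD, n = 5). Its mean at 6 h was carried by SD6 at 10.28, since the CELTIC animals lay between 6.73 and 7.99, and within CELTIC the difference between 6 and 12 h was -0.0025 (SE 0.51, exact Mann-Whitney p = 0.886). CEACAM1, an adhesion molecule of epithelium and leukocytes, had means of 10.55, 10.33 and 10.31 at 6, 12 and 24 h. ADGRE3, an adhesion receptor of myeloid cells, had means of 7.34, 7.08 and 6.70.

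The remaining markers also gave no call in the exact permutation Kruskal-Wallis test. RETN, encoding resistin, had means of 9.61, 9.10 and 9.52 at 6, 12 and 24 h over a range of 8.56 to 10.28. HAL, the enzyme that begins histidine breakdown, had means of 9.73, 9.40 and 9.21, with an SD of 1.06 at both 6 and 24 h and 0.16 at 12 h. ANKRD22 was 9.17 ± 0.45, 9.20 ± 0.52 and 8.50 ± 0.48 (SD, n = 5, 4 and 5), with a difference of -0.68 (SE 0.29) between 24 and 6 h (exact Mann-Whitney p = 0.0556, adjusted p = 0.238). TGFBI, an extracellular matrix protein induced by TGF-beta, had means of 8.85, 9.20 and 9.23, and SULF2, an enzyme that removes sulfate from heparan sulfate, had means of 7.27, 7.27 and 6.98. The tags at the places of ZDHHC19 (T007) and RBP7 (T011) held the lowest counts, 3 to 16 and 5 to 41 per animal, and the study left both out as under detection, with the first written as another family member, so their values are not interpreted.

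Across the 14 markers, 11 had a lower mean at 24 h than at 6 h and 3 (LCN2, MME and TGFBI) a higher one, with a median difference of -0.43, beside 14 lower and 6 higher over all 20 tags. By the exact Mann-Whitney U test 0 tags were called after adjustment between 6 and 24 h and 3 were at an unadjusted p below 0.05, TCN1, MME and T037 (15% of the 20), while limma called 0 after adjustment and 7 before it. Between 6 and 12 h the exact test gave 0 adjusted and 1 unadjusted call (5%, TCN1), and limma gave 2 adjusted calls. Within CELTIC it gave 0 and 2 (10%, TCN1 and MME), and limma gave 1 adjusted call. Between 12 and 24 h it gave 0 and 4 (20%, MME, T036, T037 and T038), and limma 0 and 4. With so few animals, an adjusted call by the exact test needed several tags at the smallest possible p. At least 4 tags were needed between 6 and 24 h, and 7 between 6 and 12 h or 12 and 24 h. Within CELTIC 12 of the 20 were needed, so the adjusted counts of 0 say little. The split of the means depends on scaling: subtracting the marker median in every animal added 0.28 to every difference between 24 and 6 h, which left 9 markers lower and 5 higher, with RETN and CEACAM1 changing sign.

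**Figure D3:**
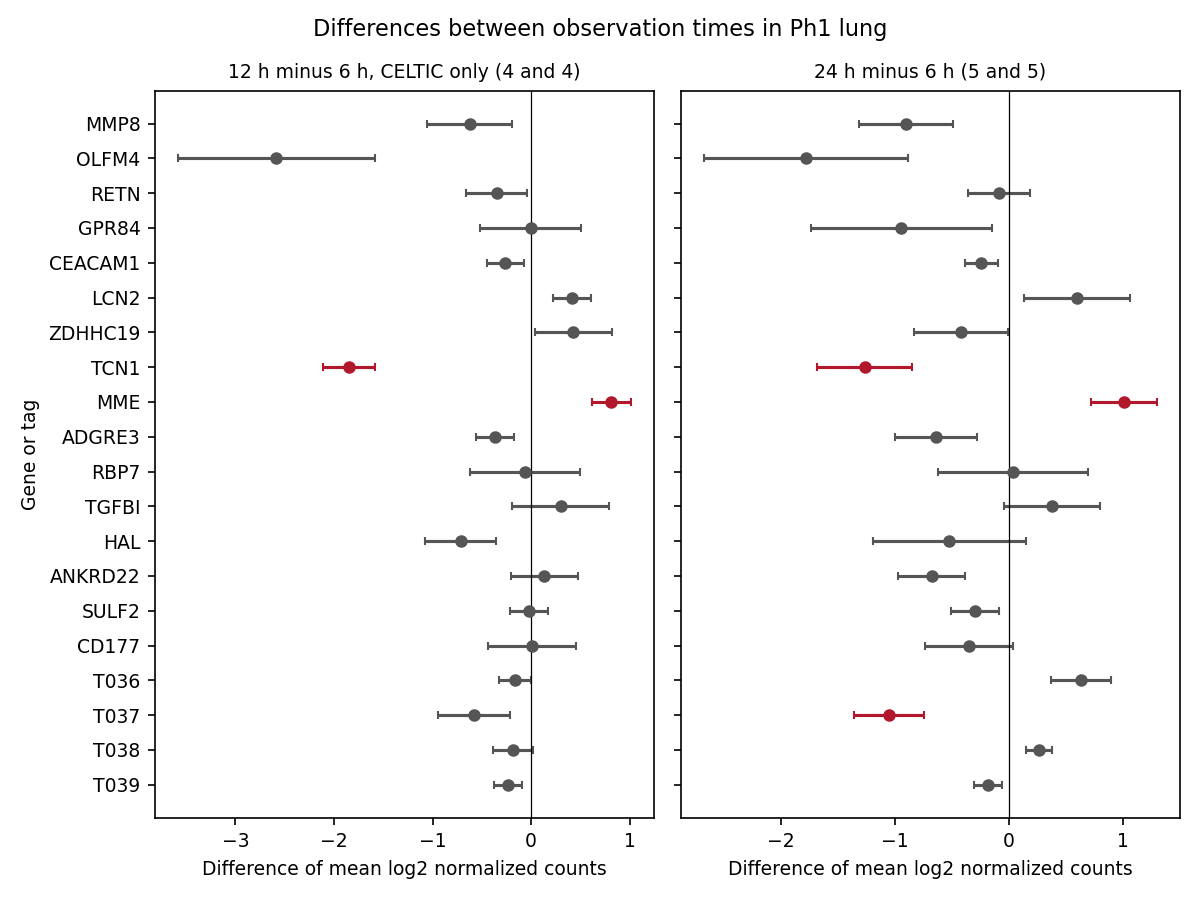
Difference of mean log2 normalized counts (x axis, bars show ± SE) for each gene or tag (y axis), for 12 h minus 6 h in CELTIC animals only and for 24 h minus 6 h in all animals of those times. Red points had an unadjusted exact Mann-Whitney p below 0.05: TCN1 (-1.85) and MME (0.82) on the left, and TCN1 (-1.27), MME (1.01) and T037 (-1.05) on the right.

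The 4 tags without a settled name held the remaining differences. At 6 h T037 was 11.02 in C1, 9.65 in C2, 10.23 in C3, 10.91 in C11 and 9.61 in SD6. At 12 h it was 9.70 in C17, 9.67 in C18, 9.70 in C19 and 10.41 in C21. At 24 h it was 9.08 in SD1, 9.23 in SD2, 9.36 in SD7, 9.09 in SD10 and 9.39 in SD14. All animals at 24 h lay below all others, with SD6 the lowest animal of the other time points. The difference between 24 and 6 h was -1.05 (SE 0.31), 2.07-fold lower (exact Mann-Whitney p = 0.00794, adjusted p = 0.159). The mean of the 24 h animals lay 1.22 below the CELTIC mean at 6 h and 0.38 below SD6. At 6 h SD6 lay below every CELTIC animal, and at 24 h time and trial cannot be told apart beyond these values. Within CELTIC 12 h differed from 6 h by -0.58 (SE 0.36, exact Mann-Whitney p = 0.486).

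T036 was 9.33 in C1, 9.76 in C2, 9.09 in C3, 9.13 in C11 and 9.65 in SD6 at 6 h. At 12 h it was 9.28 in C17, 9.11 in C18, 9.06 in C19 and 9.22 in C21. At 24 h it was 9.44 in SD1, 10.09 in SD2, 10.46 in SD7, 10.54 in SD10 and 9.60 in SD14. The 24 h animals lay above all animals at 12 h and overlapped those at 6 h. The difference between 24 and 12 h was 0.86 (SE 0.23, exact Mann-Whitney p = 0.0159, adjusted p = 0.106), where time and trial cannot be told apart. Over the 3 time points the exact permutation Kruskal-Wallis p was 0.0158 (adjusted p = 0.0789).

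T038 was 6.88 in C1, 7.25 in C2, 6.997 in C3, 6.81 in C11 and 6.64 in SD6 at 6 h. At 12 h it was 6.96 in C17, 7.06 in C18, 6.92 in C19 and 6.27 in C21. At 24 h it was 7.27 in SD1, 7.17 in SD2, 7.27 in SD7, 7.17 in SD10 and 6.996 in SD14. The 12 and 24 h animals met only at C18 and SD14, and the difference was 0.37 (SE 0.19, exact Mann-Whitney p = 0.0317, adjusted p = 0.159). Here too time and trial cannot be told apart. T039 was nearly level, with means of 9.85, 9.65 and 9.66 at 6, 12 and 24 h.

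The genes of the probe table without a placed tag are the 6 housekeeping genes. Of these, 3 set the scale of the deposited values, and which genes these tags hold is not settled. Scaling to a geometric mean keeps the mean log2 value of the scaling genes constant. No set of 3 of these tags had a constant mean, the smallest SD being 0.175 (T036, T037 and T038). If scaling was done as stated, these tags do not hold all 3 scaling genes. In the values as given, T037 differed by -1.05 and T036 by 0.63 between 24 and 6 h, in opposite directions. The calls of these tags depended on scaling. After the marker median of every animal was subtracted, the exact permutation Kruskal-Wallis test gave an adjusted p of 0.655 for T037 and 0.00587 for T036, beside 0.00587 for MME and 0.0546 for TCN1. The difference between 24 and 6 h was then -0.77 for T037, 0.92 for T036, 1.29 for MME and -0.98 for TCN1, and that of TCN1 between 6 and 12 h was -1.87.

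**Figure D4:**
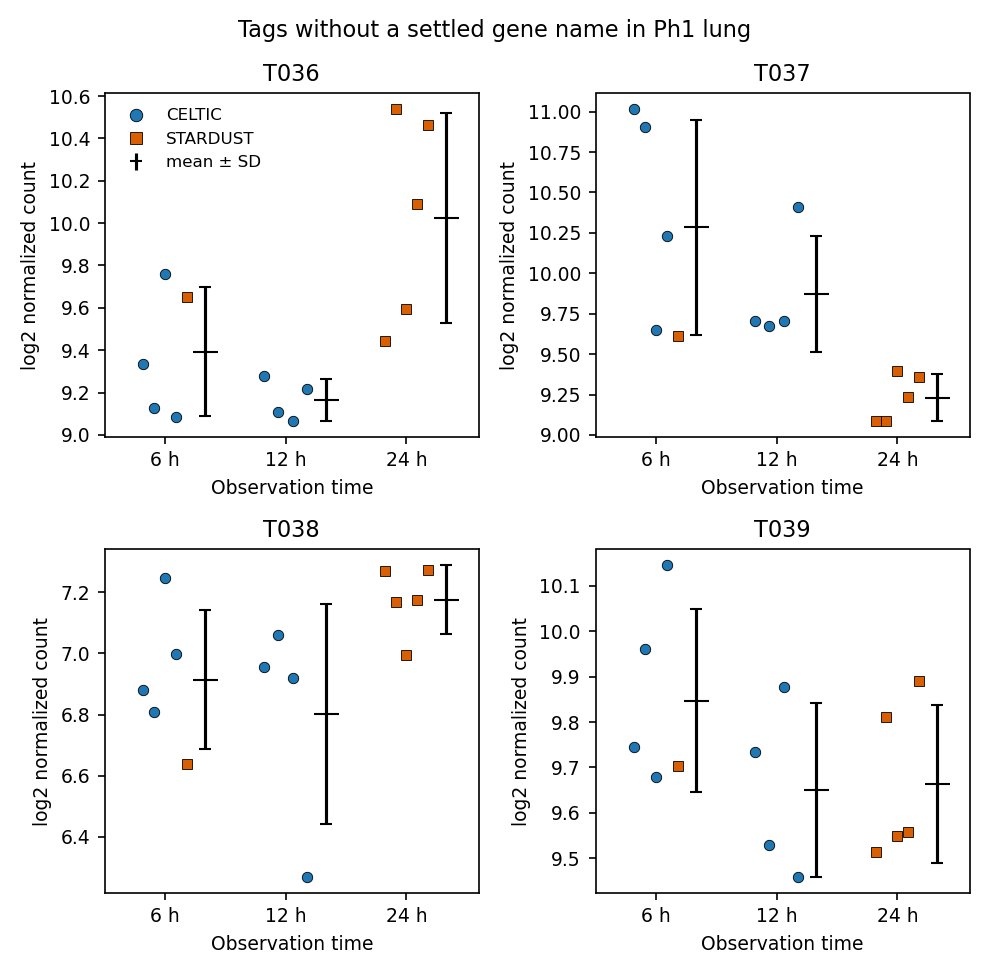
Log2 normalized counts (y axis) of the tags T036 to T039 in each Ph1 animal by observation time (x axis), with circles for CELTIC, squares for STARDUST, and mean ± SD. The 24 h squares of T037 all lie between 9.08 and 9.39, below every other animal, and those of T036 reach from 9.44 to 10.54, above every 12 h circle.

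SD6 is the only animal that shares a time point with one group and a trial with the other, so it was set beside both as a description. Of the 20 tags, SD6 lay within the range of the 4 CELTIC animals at 6 h for 11, above it for 4 and below it for 5. It lay within the range of the 5 STARDUST animals at 24 h for 13, above it for 6 and below it for 1. It was inside the 24 h range alone for MMP8, MME, ADGRE3 and HAL, inside the CELTIC 6 h range alone for OLFM4 and ANKRD22, inside both for 9, and outside both for RETN, GPR84, LCN2, T037 and T038. Its value was nearer to the CELTIC 6 h mean for 11 tags and nearer to the 24 h mean for 9.

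GPR84 was the tag for which SD6 stood farthest out, 2.82 above the CELTIC mean at 6 h and 3.20 above the 24 h mean. HAL at 8.19 lay below the CELTIC animals (9.08 to 10.60) and within the 24 h range (7.80 to 10.20). A single animal gives no spread, so trial and time at 24 h cannot be told apart beyond these values.

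**Figure D5:**
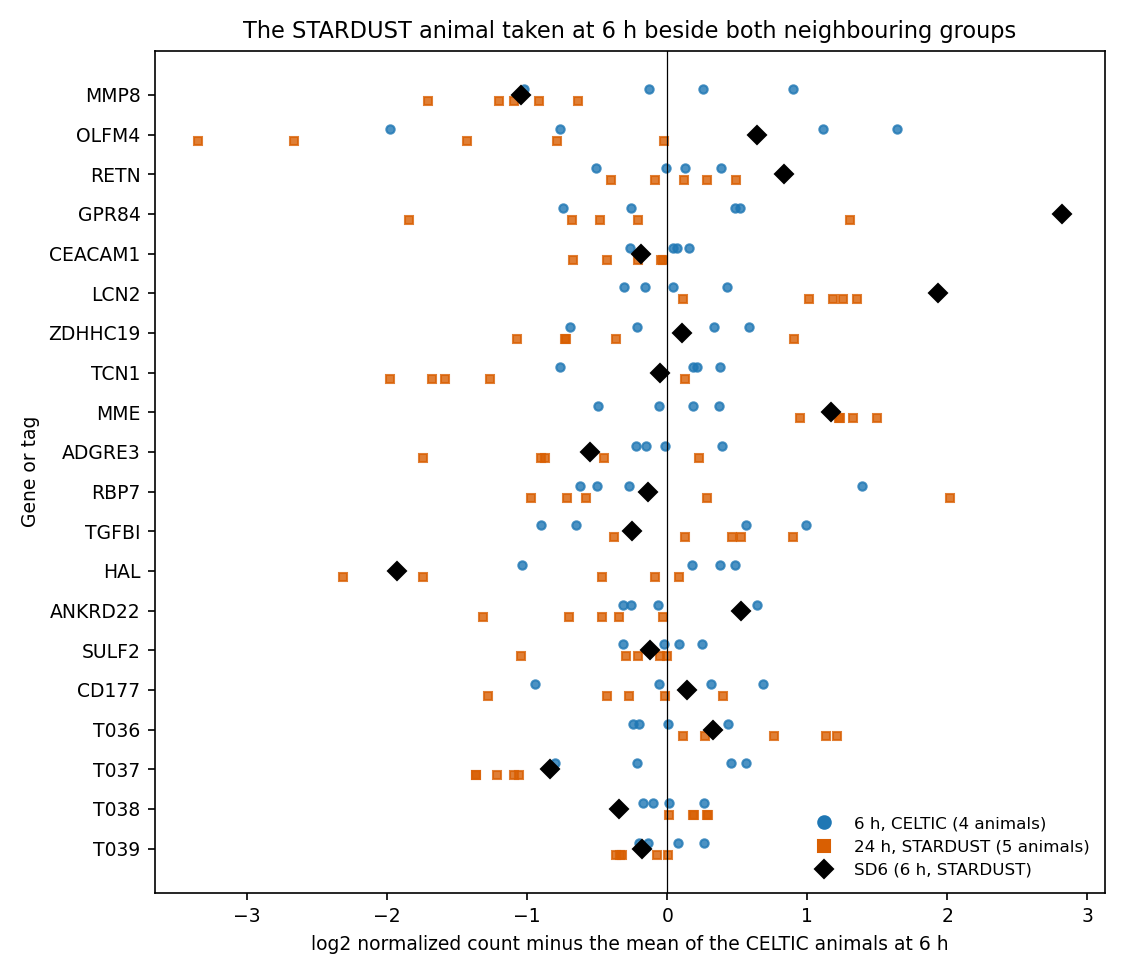
Log2 normalized count minus the mean of the 4 CELTIC animals at 6 h (x axis) for each gene or tag (y axis), for those animals (circles), the 5 STARDUST animals at 24 h (squares) and SD6, the STARDUST animal at 6 h (diamonds). For TCN1 the diamond lies within the ranges of both circles and squares, with only the SD14 square above it. It lies within the squares alone for MME, and beyond both groups for GPR84 at 2.82 and LCN2 at 1.93.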

How the data were processed

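By the study's account, RNA from 3 lobes of the right lung was pooled per animal, with the upper lobe of C19 in doubt. It was measured on a custom nCounter panel. The authors deposited log2 normalized counts. Per the methods, they subtracted the mean of the negative controls plus 2 SD, scaled to the geometric mean of 3 housekeeping genes and then log2 transformed the counts. Unlogged values were whole multiples of a single factor per animal within 0.0001, and the smallest whole numbers that fit summed to between 14122 and 34415 counts per animal (median 20457). Medians were 20649, 15441 and 25156 at 6, 12 and 24 h. Subtracting a background that is not a whole number would not leave such whole multiples. Whether background was subtracted from the deposited values is therefore not settled, and low counts may include it. The number of counts limits precision most for OLFM4, MMP8 and CD177. Times came from the sample titles, and OA in a title was read as Ph1. Trials came from the animal identifiers in the titles, read with the study's supplement. All 91 pairs of animals differed.

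The deposited values were used as given. The 3 time points were compared by a Kruskal-Wallis test with exact permutation, and pairs of them by exact two-sided Mann-Whitney U tests, with Benjamini-Hochberg adjustment over 20 tags and a threshold of 0.05. Correlations used 100000 permutations. Alternatives were an exact permutation test of means, limma (lmFit, eBayes) with and without trial, centring on the marker median, a pseudocount of 10, 18 tags without T007 and T011, no adjustment, and leaving out each animal. Scripts were tested on simulated data. The tags, lists and the rule for values per animal (an unadjusted p below 0.05 in any comparison of time points) were chosen with earlier results of these data known. Tag names rest on place in the probe table. All 16 placed symbols were found in the RefSeq gene table for sheep, which does not test the tag each was placed on. Of the 16 transcripts, 5 were found there, and those of TCN1 and MME were not. Python 3.11.15, numpy 2.4.6, scipy 1.17.1, pandas 2.3.3, matplotlib 3.10.9, R 4.3.3 and limma 3.58.1 were used.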

Additional observations from a re-analysis of the deposited data

Results flagged for a closer look

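In each group of 4 or 5 animals, the highest and the lowest were compared with the rest by Dixon's ratio, which marks about 1 in 20 groups by chance. Of 60 groups, 9 held such an animal, 6 of them at 12 h. At 12 h, C18 had OLFM4 at 2.11, from 4 counts, with the others between 4.07 and 4.40. The same animal had ADGRE3 at 7.48 against 6.90 to 6.97, and HAL at 9.16 against 9.46 to 9.51. C21 had GPR84 at 6.25 against 7.74 to 7.98, CEACAM1 at 9.84 against 10.47 to 10.51, and T037 at 10.41 against 9.67 to 9.71 (all log2 normalized counts). At 6 h, C1 had RBP7 at 4.48, from 27 counts, with the others between 2.47 and 2.95. At 24 h, SD1 had LCN2 at 11.06 against 11.96 to 12.30, and SD14 had SULF2 at 6.25 against 7.002 to 7.29.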

How the results depend on the processing

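The count of tags that differed between 6, 12 and 24 h was 3. It was 0 with the exact permutation test of means, 5 with limma and the time point, and 1 with limma and both time point and trial. With each animal left out in turn it was between 0 and 3. Between 6 and 12 h the adjusted count was 0, and it was 2 with limma and the time point, 1 with trial added and 1 without adjustment. Within CELTIC it was 0, and it was 1 with limma and 2 without adjustment. Between 6 and 24 h and between 12 and 24 h it was 0, and 3 and 4 without adjustment. The correlated pairs numbered 0, and between 0 and 1 with each animal left out. No difference that was called changed sign. With each animal left out, the adjusted Kruskal-Wallis p (exact permutation test) lay between 0.00932 and 0.0716 for TCN1, between 0.00133 and 0.0716 for MME and between 0.0164 and 0.0716 for T037, below 0.05 in 11, 10 and 9 of 14 cases. Leaving out T007 and T011 or adding the pseudocount left the same 3 tags called. Trial could not be fitted between 12 and 24 h or within CELTIC. No paired analysis was possible because each animal was taken at a single time point. The counts of OLFM4, MMP8 and CD177 go down to 4, 12 and 10 per animal, and did not exceed the larger count of T007 and T011 in 1, 1 and 3 animals.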

Other observations

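By the SD, the animals at 12 h were the most alike for most markers, though 6 of the 9 groups flagged by Dixon's ratio were at 12 h. The SD of the log2 normalized count was smallest at 12 h for 10 of the 14 markers, at 6 h for 3 and at 24 h for 1. The median SD over the markers was 0.32 at 12 h, 0.61 at 6 h, 0.48 among the CELTIC animals at 6 h and 0.49 at 24 h. Within CELTIC, 9 of the 14 markers had a smaller SD at 12 h than at 6 h, with no test made. The 12 h animals also had the lowest median count, 15441 per animal. Their totals reached 19167 and overlapped those at 6 h, which began at 15985.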
